A study of Mus musculus with 8 samples.

Results

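The 10 genes described here are those of the core Notch pathway: the receptors Notch1, Notch2, Notch3 and Notch4, the ligands Jag1, Jag2, Dll1 and Dll4, and the target genes Hes1 and Hey1. They were taken by gene symbol from the platform annotation, without regard to their values, as all probe sets that carry 1 of these symbols and no other. This gave 19 of 45037 probe sets that are not controls, and 10 of 18193 genes with a probe set of their own. Expression was measured on Affymetrix mouse arrays in skeletal stem cells (SSCs, 4 arrays) and in the bone, cartilage and stroma progenitors downstream of them (BCSPs, 4 arrays). Both populations were sorted from femoral fracture calluses of male C57/Bl6 mice aged 10 to 12 weeks, with 1 array of each population in each of 4 experiments. All mice had a bicortical femoral fracture held by an intramedullary pin, and no unfractured bone was measured. The labels give day 7 after fracture, and the study's methods give a later day. In both gates the cells were negative for CD45, Ter119, Tie2, 6C3 and Thy1 and positive for CD51. SSCs were in addition positive for CD200 and negative for CD105, and BCSPs were positive for CD105. The labels give 10000 sorted cells for each population and experiment, not cultured.

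Notch receptors are membrane proteins that are activated by ligands on a neighbouring cell. Ligand binding lets ADAM proteases and then gamma-secretase cut the receptor, and the released intracellular domain joins the DNA-binding protein Rbpj and Mastermind coactivators to switch on transcriptional repressors of the Hes and Hey families. In the skeleton the pathway is known for holding back the differentiation of progenitors, and gain-of-function mutations of human NOTCH2 cause a syndrome of bone loss. Notch4 and Dll4 are best known from endothelial cells and Notch3 from mural cells of vessels.

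The deposited value of each probe set is an activity score between about -100 (inactive) and +100 (active), with 0 as the threshold that the Gene Expression Commons platform sets for that probe set. It places a probe set within its own range over a large collection of public arrays, so it does not rank the amount of mRNA of one gene against that of another, and all differences below are in score points. The array medians lay between -34.1 and -24.8, and 29.0% to 31.0% of probe sets were above 0 on each array. The 95th percentile of 30 probe sets of genes of retina, liver, testis and other unrelated tissues, used as a silent reference, lay between -24.1 and -9.3. On each array 0 or 1 of these 30 probe sets was above 0. Chondrogenic marker genes (6 of 6) and osteogenic marker genes (4 of 4 measured) were above 0 on all 8 arrays. Of the genes of the sort markers, those gated out in both populations (Ptprc, Tek, Thy1 and Enpep) were below 0 on every array, and Eng, which encodes CD105, was lower on each SSC array than on any BCSP array. Itgav, the gene of CD51, was above 0 on all 8 arrays by 1 of its 5 probe sets, the lowest of which had a mean of -91.2. Cd200 did not separate the populations, although CD200 was part of the SSC gate only. Its scores ran from 94.25 to 99.57 over the 8 arrays, and SSCs differed from BCSPs by 0.897 points. Each gene was taken at its probe set with the highest mean, and Eng had 2. In such sorted pools, fewer cells with a transcript and less transcript per cell cannot be told apart.

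Across the 2 populations, the core of the pathway was above its thresholds at 1 target and 1 receptor and below them almost everywhere else. Hes1 and 1 of 2 Notch2 probe sets scored above 0 on all 8 arrays, 1 of 3 Jag1 probe sets lay close to the threshold, and Notch1, Notch3, Jag2, Dll1 and Hey1 were above 0 on none. In all, 2 of the 19 probe sets were above 0 on all 8 arrays, 3 on some and 14 on none. Among all probe sets, 16.1% were above 0 on all 8 arrays and 49.5% on none. With each gene taken at its probe set with the highest mean, 2 core genes were above 0 on all 8 arrays, beside 25.0% of all genes. Above 0 on none were 3 receptors, 2 ligands and 1 target, beside 43.5% of all genes. In the wider pathway described below, 15 of 44 further genes were above 0 on all 8 arrays. None of the 19 probe sets passed the comparison of SSCs with BCSPs.

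**Figure D1:**
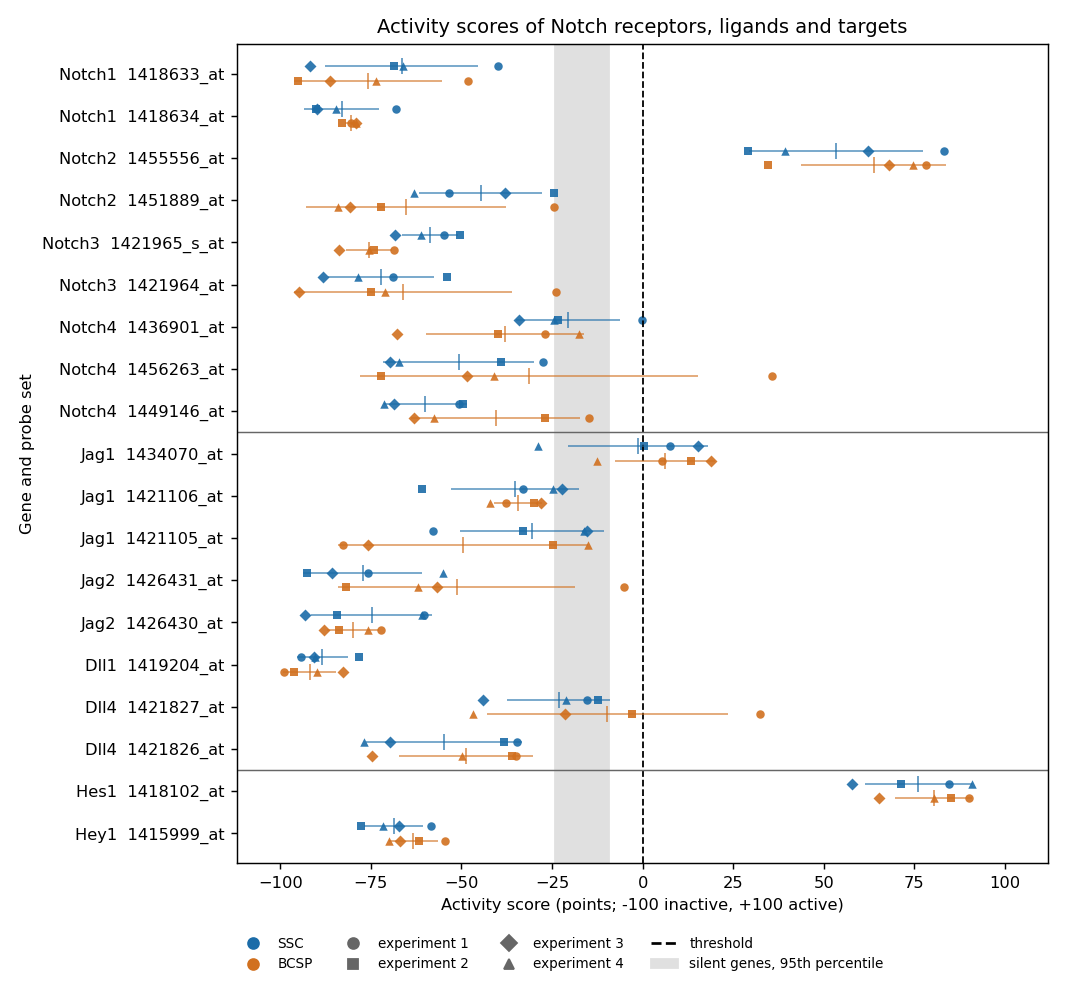
Activity score (points, horizontal axis) of each of the 19 probe sets (rows, with horizontal lines between receptors, ligands and targets) on the 4 SSC arrays (blue) and the 4 BCSP arrays (orange), with marker shape for the experiment and the mean and SD of each population as a tick and a line. The dashed line is the threshold of 0 and the grey band spans the silent reference's 95th percentile over the arrays; only Hes1 and Notch2 1455556_at lie wholly to the right of 0.

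Promoter sequences were compared between the receptor above the threshold and a receptor below it. Below are the 250 bases before the annotated start of Notch2 and of Notch1, 5′ to 3′ on the strand of the gene (RefSeq, GRCm38.p6), with each GC box (GGGCGG or its reverse complement CCGCCC, the site of Sp-family factors) in capitals. Notch2 lies at chr3:98013288-98013537 on the plus strand and Notch1 at chr2:26503823-26504072 on the minus strand.
Notch2: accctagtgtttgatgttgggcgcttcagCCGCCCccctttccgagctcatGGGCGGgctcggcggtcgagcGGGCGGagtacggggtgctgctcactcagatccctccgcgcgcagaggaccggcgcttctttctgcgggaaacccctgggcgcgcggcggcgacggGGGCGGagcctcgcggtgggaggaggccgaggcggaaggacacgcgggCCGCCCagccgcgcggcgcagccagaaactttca
Notch1: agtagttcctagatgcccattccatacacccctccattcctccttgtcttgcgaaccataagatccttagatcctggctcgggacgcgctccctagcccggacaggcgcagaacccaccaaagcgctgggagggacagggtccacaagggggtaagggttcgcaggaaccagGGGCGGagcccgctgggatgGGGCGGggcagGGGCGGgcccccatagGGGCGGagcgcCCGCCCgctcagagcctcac
Each of the 2 windows held 5 GC boxes, with the Notch2 score of probe set 1455556_at above 0 and both Notch1 scores below 0 on every array. The table held windows for 8 of the 10 members, 9 windows in all, and of these 5 had a GC box, against 32.7% of all 32851 windows of this length. The others with a GC box were those of Notch3, Jag2 and Dll4, while Notch4, Jag1 and both windows of Dll1 had none. The core letters of the Rbpj motif, TGGGAA or TTCCCA, were found in 0 of the 9 windows and in 21.6% of all windows. The 9 windows held 56.0% to 87.2% G and C, beside a median of 52.4% over all windows. The part of base composition in both counts was not tested. Windows for Hes1 and Hey1 were not used here.

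Of the receptors, Notch2 had the highest scores, and its 2 probe sets lay far apart. Notch2, a receptor of wide expression, scored on probe set 1455556_at 83.1, 29.0, 62.1 and 39.4 on the SSC arrays of experiments 1 to 4 and 78.3, 34.5, 67.9 and 74.6 on the BCSP arrays. The arrays of experiment 2 were the lowest of each population, and the populations overlapped. The SSC mean was 53.4 ± 24.1 (SD, n = 4) and the BCSP mean 63.8 ± 20.02 (SD, n = 4), and the scores exceeded those of 80.9% to 95.02% of probe sets on the same array. The difference was -10.4 points (SSC minus BCSP, 95% confidence interval -40.6 to 19.7, limma adjusted p = 1), with SSCs lower in 3 of 4 experiments. It was -2.28 points without the SSC array of experiment 2 and -20.3 points without that of experiment 1. The second Notch2 probe set, 1451889_at, was below 0 on every array, between -84.0 and -24.4, and lay 53.4 to 159.0 points below the first on the same array. Its SSC mean was above its BCSP mean by 20.6 points (95% confidence interval -13.1 to 54.3, limma adjusted p = 1), so the direction between populations differed between the 2 probe sets. Notch2 is therefore above its threshold by 1 probe set only.

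Notch1, the receptor whose human gene is mutated in T cell leukaemia, was below 0 on every array by both probe sets. Probe set 1418633_at scored -39.8, -68.6, -91.7 and -66.0 on the SSC arrays of experiments 1 to 4 and -48.1, -95.2, -86.2 and -73.6 on the BCSP arrays. The arrays of experiment 1 were the highest of both populations, and the populations overlapped. Probe set 1418634_at lay between -90.1 and -68.0 on all 8 arrays. Neither exceeded the silent reference's 95th percentile on any array.

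Notch3, a receptor of vascular smooth muscle and pericytes, held the only probe set of the 19 whose populations did not overlap. On probe set 1421965_s_at the SSC arrays scored -54.9, -50.4, -68.3 and -61.1 in experiments 1 to 4, and the BCSP arrays -68.6, -74.0, -83.8 and -75.5. All 4 SSC arrays were higher, the closest pair being the SSC array of experiment 3 and the BCSP array of experiment 1, and SSCs were higher in each experiment by 13.7 to 23.6 points. The difference of 16.8 points (standard error 7.32, 95% confidence interval 0.355 to 33.3) had an unadjusted p = 0.0461 in limma over all probe sets and did not pass after adjustment (adjusted p = 1). Among all probe sets, 0.653% had all SSC arrays above all BCSP arrays, 0.773% had them all below (1.43% in either direction), and 2.40% had an unadjusted p under 0.05 in limma. All 8 scores lay under the silent reference's 95th percentile on their arrays, so the comparison lies among scores in the range of genes taken as silent. The second Notch3 probe set, 1421964_at, did not separate the populations, with -68.9, -53.9, -88.1 and -78.5 on the SSC arrays and -23.9, -74.9, -94.9 and -71.1 on the BCSP arrays. It was higher in SSCs in 2 of 4 experiments, with a difference of -6.12 points (95% confidence interval -39.0 to 26.8) that turned to 7.98 points without the BCSP array of experiment 1. Of 8 mural marker genes, Cspg4, which chondrocytes also express, was above 0 on all 8 arrays and the other 7, among them Rgs5, Myh11 and Acta2, on none.

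Notch4, a receptor largely of endothelium, was measured by 3 probe sets whose directions between populations differed. Probe set 1436901_at, the one with the highest mean, scored -0.19, -23.4, -34.2 and -24.5 on the SSC arrays of experiments 1 to 4 and -27.0, -40.0, -67.8 and -17.5 on the BCSP arrays, and was higher in SSCs in 3 of 4 experiments. Probe set 1449146_at scored -50.6, -49.5, -68.6 and -71.4 on the SSC arrays and -14.8, -27.0, -63.2 and -57.5 on the BCSP arrays, and was lower in SSCs in 4 of 4 experiments. The populations overlapped in both. Probe set 1456263_at scored -27.5, -39.0, -69.7 and -67.2 on the SSC arrays and 35.7, -72.1, -48.5 and -40.9 on the BCSP arrays, so that 1 BCSP array, that of experiment 1, was above 0. The differences were 17.5, -19.4 and -19.4 points in the order given, and the 95% confidence interval of each included 0 (limma adjusted p = 1 for each). Without the BCSP array of experiment 3 the difference of 1436901_at was 7.58 points. Without the BCSP array of experiment 1 that of 1449146_at was -10.8 points, and that of 1456263_at turned to 3.01 points.

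Of the ligands, only Jag1 reached its threshold on more than 1 array. Jag1, the ligand whose human gene is mutated in Alagille syndrome, scored on probe set 1434070_at 7.68, 0.39, 15.4 and -28.8 on the SSC arrays of experiments 1 to 4 and 5.24, 13.5, 18.97 and -12.6 on the BCSP arrays. It was above 0 in experiments 1 to 3 and below 0 in experiment 4 in both populations, and the populations overlapped. The difference was -7.61 points (95% confidence interval -40.6 to 25.4, limma adjusted p = 1), with SSCs lower in 3 of 4 experiments, and it was 1.54 points without the SSC array of experiment 4. The other Jag1 probe sets were above 0 on no array, 1421106_at between -60.9 and -22.1 and 1421105_at between -82.6 and -15.1. Against the silent reference's 95th percentile on each array, 1434070_at was higher on 7 arrays, 1421105_at on 3 and 1421106_at on 1.

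Dll1, a Delta-type ligand with roles in somite formation, had the lowest mean over the 8 arrays of the 19 probe sets, though other members were lower on single arrays. Its probe set 1419204_at scored -94.3, -78.2, -90.7 and -90.5 on the SSC arrays of experiments 1 to 4 and -98.9, -96.1, -82.6 and -90.0 on the BCSP arrays, and exceeded at most 11.6% of probe sets on any array. The spread over the 8 arrays, 20.7 points, was the smallest of the 19 probe sets, and the difference of 3.49 points had a 95% confidence interval of -9.52 to 16.5 and was -1.33 points without both arrays of experiment 2. Jag2, a second Jagged ligand, was below 0 on every array, with probe set 1426430_at between -93.3 and -60.3. Its probe set 1426431_at scored -75.9, -92.6, -85.7 and -55.1 on the SSC arrays and -5.08, -81.8, -56.7 and -61.9 on the BCSP arrays. The SSC minus BCSP difference of -26.0 points (95% confidence interval -61.9 to 9.94, limma adjusted p = 1) was the largest in size of the 19 probe sets, and it was -10.6 points without the BCSP array of experiment 1.

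Dll4, the ligand that restrains sprouting of endothelial tip cells, was above 0 on 1 array. Probe set 1421827_at scored -15.3, -12.4, -43.9 and -21.2 on the SSC arrays of experiments 1 to 4 and 32.3, -2.98, -21.4 and -46.7 on the BCSP arrays. The BCSP array of experiment 1 stood above 0 and the populations overlapped. The difference of -13.5 points (95% confidence interval -54.7 to 27.7) became 0.508 points without that array. The second Dll4 probe set, 1421826_at, lay between -77.0 and -34.8.

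The target genes Hes1 and Hey1 lay at opposite ends of their ranges. Hes1, a basic helix-loop-helix repressor and the classical direct target of Notch, scored on probe set 1418102_at 84.6, 71.2, 57.7 and 91.0 on the SSC arrays of experiments 1 to 4 and 90.2, 85.1, 65.4 and 80.4 on the BCSP arrays. Every array was above 0 and above the silent reference's 95th percentile, the arrays of experiment 3 were the lowest of each population, and the populations overlapped. The SSC mean was 76.1 ± 14.8 (SD, n = 4) and the BCSP mean 80.3 ± 10.7 (SD, n = 4), and the scores exceeded those of 86.8% to 96.9% of probe sets on the same array. The difference was -4.13 points (standard error 7.85, 95% confidence interval -21.8 to 13.5, limma adjusted p = 1), and SSCs were lower in 3 of 4 experiments. Without the SSC array of experiment 3 the difference was 2.03 points.

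Hey1, the related repressor of the Hairy/E(spl) family with a YRPW motif, scored on probe set 1415999_at -58.4, -77.6, -67.1 and -71.7 on the SSC arrays of experiments 1 to 4 and -54.5, -61.7, -67.0 and -70.1 on the BCSP arrays. All arrays lay below the silent reference's 95th percentile, with an SSC mean of -68.7 ± 8.1 (SD, n = 4) and a BCSP mean of -63.3 ± 6.83 (SD, n = 4). SSCs were lower in 4 of 4 experiments, by 0.08 points in the closest, a sign pattern shared by 7.24% of all probe sets, while 5.43% were higher in 4 of 4. The difference was -5.36 points (95% confidence interval -22.3 to 11.6, limma adjusted p = 1), and the populations overlapped. Hes1 and Hey1 had 1 probe set each, so neither score could be set beside a second one.

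In the comparison of SSCs with BCSPs the 19 probe sets gave 0 calls in limma, as did all 45037 probe sets (0% higher and 0% lower in SSCs). At an unadjusted p under 0.05 there was 1 of 19, Notch3 1421965_s_at, a count that ranged from 0 to 2 when arrays were left out, beside 1081 of all probe sets (2.40%, of which 1.18% higher and 1.22% lower in SSCs). At that unadjusted level the methods' t-test gave 1 of 19 and 1094 of all, with no call once adjusted. A limma fit blocked by experiment gave 1 of 19 and 2268 of all, again with no call once adjusted. The SSC mean was lower for 12 probe sets and higher for 7, with a median difference of -4.13 points, beside -0.605 points over all probe sets. The half-width of the unadjusted 95% confidence interval ran from 13.0 points for Dll1 to 50.3 points for Notch4 1456263_at, and in the blocked fit from 10.2 points for Hes1 to 40.1 points for Notch4 1456263_at. The number of arrays limits the precision.

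**Figure D2:**
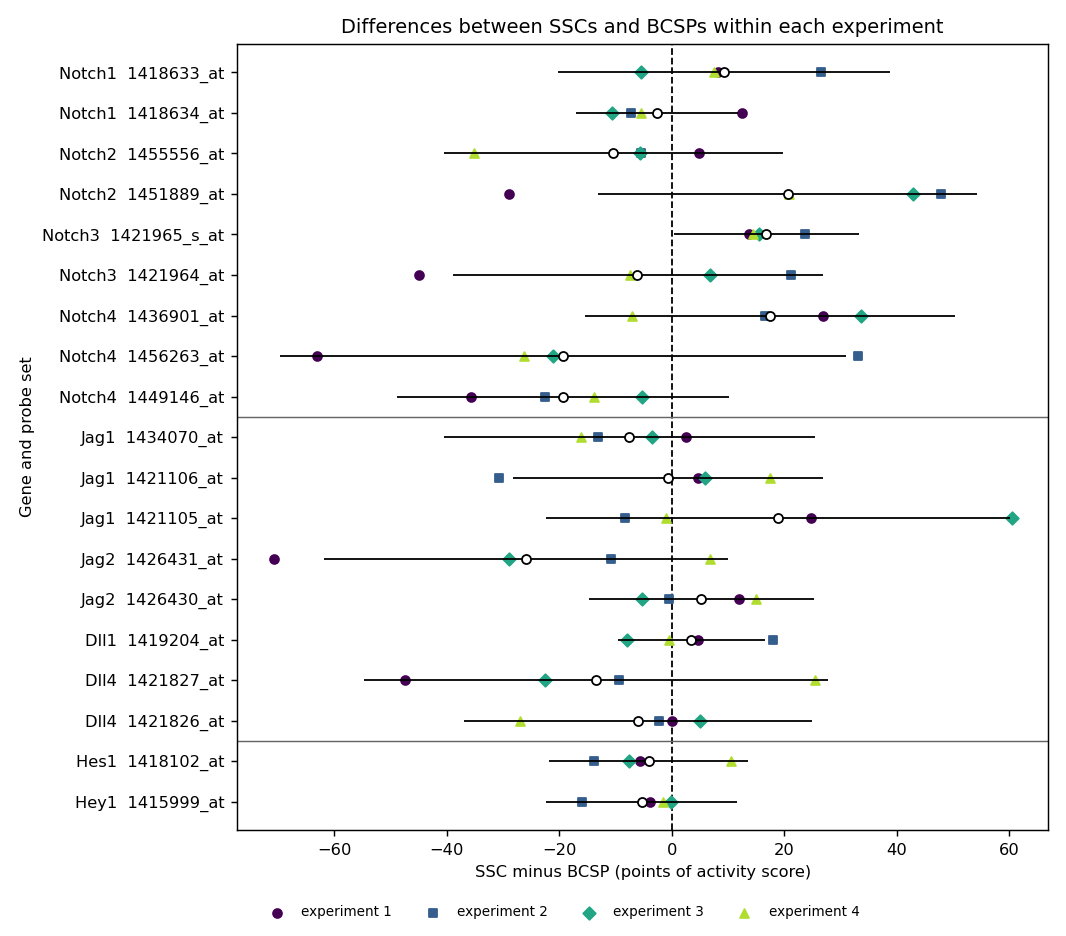
Difference in activity score (SSC minus BCSP, points, horizontal axis) of the 19 probe sets (rows) within each of the 4 experiments (filled markers), with the mean difference and its 95% confidence interval from limma (open circles and lines). Every interval but that of Notch3 1421965_s_at (0.355 to 33.3) includes 0, the dashed line, and the widest spread between experiments is that of Notch4 1456263_at.

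Scores differed less between the populations of an experiment than between experiments. For these 19 probe sets the median gap between the 2 populations of an experiment was 12.8 points, and the median gap between 2 experiments of a population was 15.9 points, beside 14.0 and 19.3 points over all probe sets. The BCSP array of experiment 1 stood apart for several members, a pattern seen only after the values were known. It was the highest of the BCSP arrays for 13 of 19 probe sets, beside 30.9% of all probe sets, and over 20 points above each other BCSP array for 6, beside 13.0% of all. These 6 were Notch1 1418633_at, Notch2 1451889_at, Notch3 1421964_at, Notch4 1456263_at, Jag2 1426431_at and Dll4 1421827_at, each a different gene, and only those of Notch4 and Dll4 were above 0 there. On the SSC array of the same experiment 1 of these 6, Notch1 1418633_at, was likewise over 20 points above each other SSC array, and all 6 were below 0. None of the other probe sets of these 6 genes was over 20 points above each other BCSP array there. For Notch1 1418634_at and Notch4 1436901_at the BCSP array of experiment 4 was the highest. For the remaining ones the BCSP array of experiment 1 was the highest of the BCSP arrays, but by less than 20 points over the next. On that BCSP array the median of 11 endothelial marker genes was -65.2, the lowest of the BCSP arrays (-62.2 to -42.6 on the others). Of the 11 genes, 5 were the lowest of the BCSP arrays there, among them Tek at -99.5, and 2 were the highest, Cdh5 at -28.4 and Egfl7 at -1.0. The median of the 21 silent genes was -28.1 there, the highest of the 8 arrays (-56.8 to -36.1 on the others). Of the 30 silent probe sets 1 was above 0 there, that of Slc12a1 at 63.4, higher than those of Notch4 and Dll4. The part of these shifts in the Notch scores was not tested. Of the endothelial list Erg, which chondrocytes also express, was above 0 on all 8 arrays and the other 10 genes on none. Over the SSC arrays the list's median ran from -79.5 to -74.0, below every BCSP array.

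**Figure D3:**
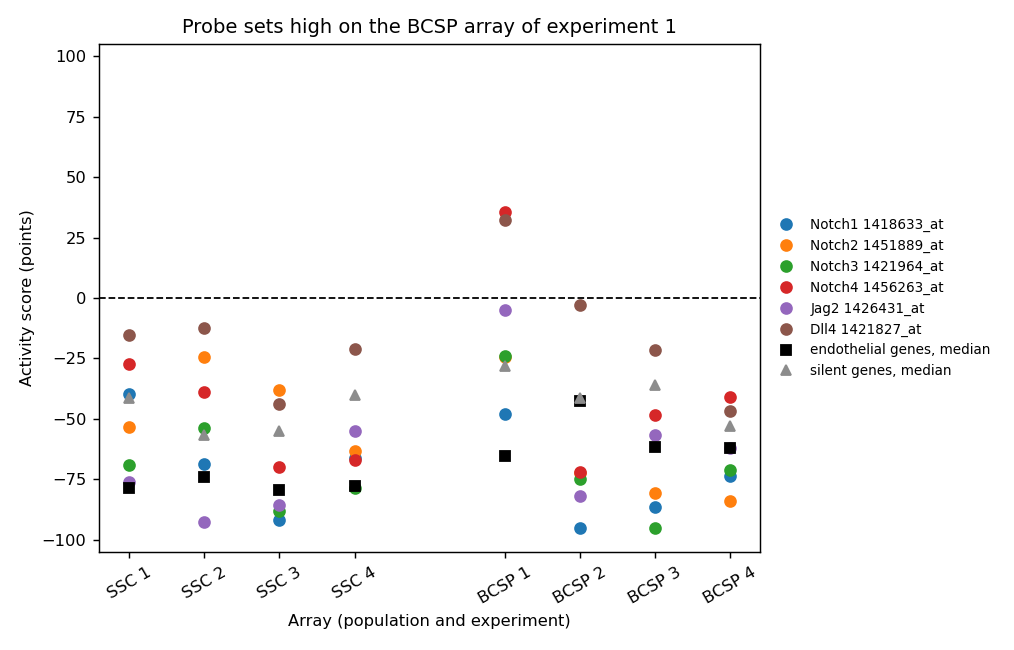
Activity score (points, vertical axis) on each array (horizontal axis, population and experiment) of the 6 probe sets more than 20 points higher on the BCSP array of experiment 1 than on any other BCSP array, with the medians of the endothelial genes (black squares) and of the silent genes (grey triangles). Notch4 at 35.7 and Dll4 at 32.3 are the only points above the dashed threshold of 0.

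The wider pathway was described by 48 further genes, of which 44 had a probe set of their own, each taken at its probe set with the highest mean. Of these, 15 were above 0 on all 8 arrays, 13 on some and 16 on none, beside 25.0% of all genes on all arrays and 43.5% on none. None passed between SSCs and BCSPs in limma. At an unadjusted p under 0.05 there was 1 of 44, beside 2.20% of all genes taken the same way. This was the ligand Dll3, at -79.2 in SSCs and -51.5 in BCSPs on average and below 0 on every array. The median difference was -2.5 points, with 27 genes lower and 17 higher in SSCs. Of the 15 genes above 0 on all arrays, 10 had several probe sets, and in 2 of those, Aph1b and Tle1, each probe set was above 0 on all arrays.

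Subunits of gamma-secretase, Rbpj and a Groucho-type corepressor were among the genes above their thresholds. Among 8 measured cleavage genes, 4 were above 0 on all arrays and 1 on none. Aph1b and Psenen, subunits of gamma-secretase, had means over the 8 arrays of 59.7 and 58.6, and the lowest means were those of Ncstn, the gamma-secretase subunit that binds substrate, at -58.1 and Adam10, the protease of the ligand-induced cut, at -47.5. Adam17, a related protease, scored 29.9 to 67.7. Of the 5 nuclear activators, Snw1 (51.6) and Rbpj (32.4) were above 0 on all arrays, Ep300, a histone acetyltransferase, had a mean of -1.45 and Maml2, a Mastermind coactivator, of -88.9. Of the 5 nuclear repressors, 3 were above 0 on all arrays, led by the Groucho-type Tle1 (88.9) and by Ctbp1 (44.6), while Cir1 (-2.17) and Spen (-84.4), a corepressor partner of Rbpj, were the lowest.

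Genes that modify receptors and ligands were split. Of 6 glycosylation genes, Poglut1 (67.6) and Eogt (59.7), which add O-linked glucose and N-acetylglucosamine to the extracellular repeats, and Pofut1 (26.7), which adds O-linked fucose, were above 0 on all arrays. The Fringe enzymes Mfng (-94.4) and Lfng (-86.4), which extend that fucose, were above 0 on none. Of 11 genes of endocytosis and turnover, the ubiquitin ligases Itch (96.2) and Mib1 (70.01), the latter needed for ligand uptake, were above 0 on all arrays and 5 on none, with Dtx4 (-91.5) and Dtx3 (-65.5) the lowest. Of 4 other ligands, Dlk2, a non-canonical one, was above 0 on all arrays at 64.3 to 97.2, and Dner (-40.4), Dlk1 (-45.8) and Dll3 (-65.4) on none.

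None of the 5 other target genes was above 0 on all 8 arrays, as Hes1 was. Hes5 had a mean of -5.49 and was above 0 only on the BCSP array of experiment 1, at 58.9, and Hes7, at 15.5, likewise. The silent gene Slc12a1 scored 63.4 on that array. Heyl had a mean of -38.8, Hey2 of -49.6 and Nrarp, a feedback inhibitor of Notch, of -81.0. Hes1 was thus the only 1 of 7 measured target genes above its threshold on every array.

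**Figure D4:**
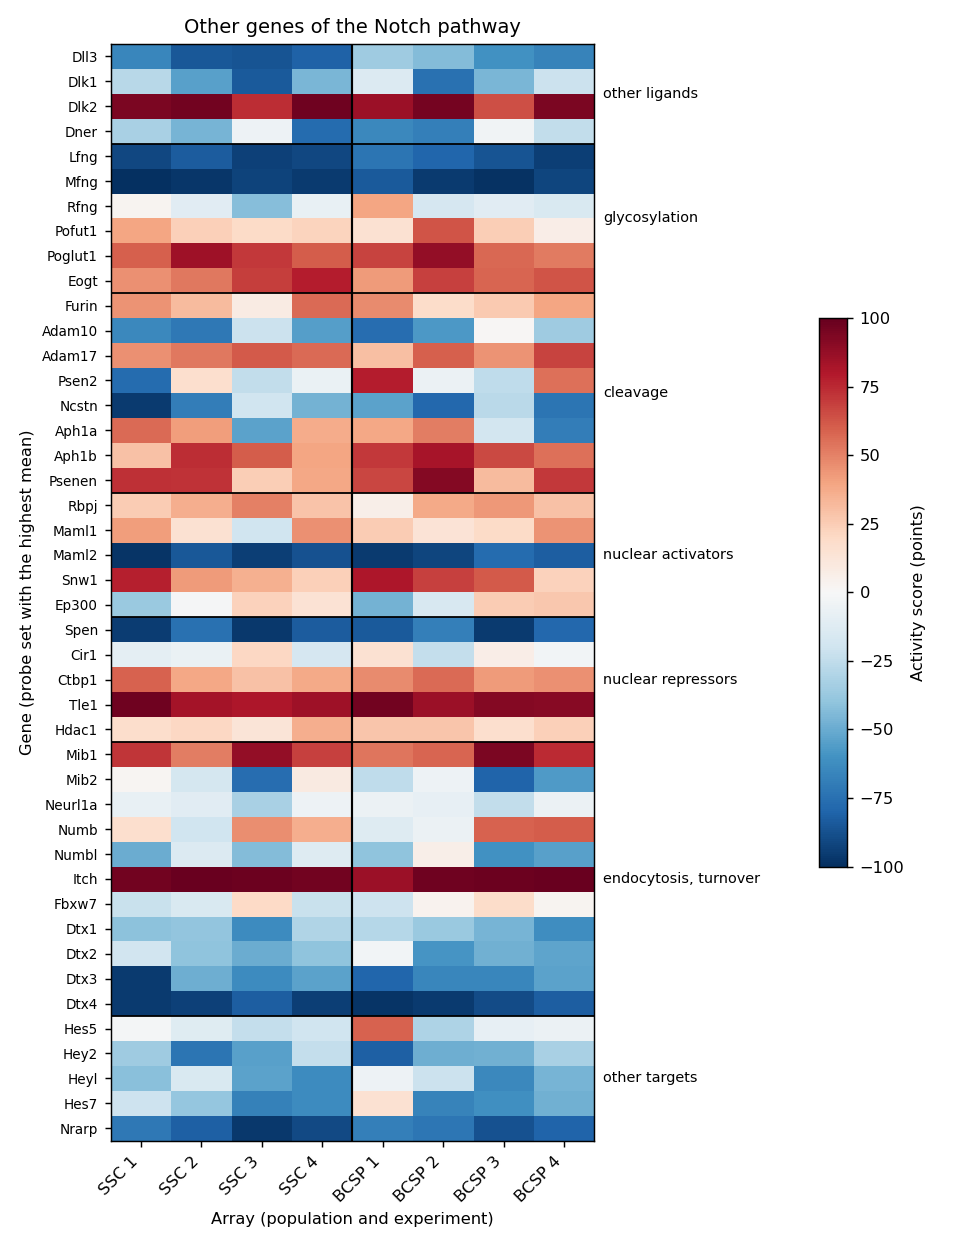
Activity score (colour, points from -100 in blue to +100 in red) of 44 further Notch pathway genes (rows, by function) on the 4 SSC and 4 BCSP arrays (columns), each gene at its probe set with the highest mean. Dlk2, Tle1 and Itch are red on all 8 arrays, and Hes5 and Hes7 are above 0 only on the BCSP array of experiment 1.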

How the data were processed

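Cells were sorted from fracture calluses, and the authors amplified the RNA and hybridized it to Affymetrix mouse arrays. On Gene Expression Commons they set each array against a Common Reference of public arrays, where StepMiner fixes the threshold of a probe set. The deposited activity score ran from -100.03 to 100. The method that summarised probes was not given in the sources used here. Scores entered as deposited, and no fold was computed.

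Gene names came from the platform annotation (34958 with 1 symbol, 932 with several, 9211 unnamed), and 64 control probe sets were left out. SSCs and BCSPs were compared over 45037 probe sets by a two-sided limma fit without a block (limma 3.58.1, R 4.3.3, eBayes with a trend), with p-values adjusted by Benjamini-Hochberg and called under 0.05. The fit was tested on simulated data, with planted differences larger than that of any member probe set and without pairing by experiment. That test does not measure the power to find differences of the members' size. All probe sets of the 10 genes were named, and of each other pathway list the 2 genes with the highest and the 2 with the lowest mean, plus those past the threshold; other names were picked with their values in view. The members and lists were chosen with earlier results of these data known, and the sort marker list was added after the files were read.

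Each experiment gave 1 SSC and 1 BCSP array. For the BCSP array of experiment 2 the title and description give different replicate numbers, and the experiment was used. The deviations from the population mean of the SSC and BCSP arrays of an experiment correlated at 0.394, 0.164, 0.605 and 0.173 in experiments 1 to 4, so the arrays are paired by experiment. The main fit did not use this pairing, and the intervals and p-values of single genes leave it out unless the block is named. The block was an alternative. With it the standard error was 4.17 in place of 7.85 points for Hes1 and 6.91 in place of 13.4 for Notch2 1455556_at, but 5.8 beside 5.78 for Dll1. The study's figure legend says that the SSCs and BCSPs came from calluses of 4 different mice. Where the labels do not name separate animals, p-values measure the spread between these arrays. Promoter windows came from RefSeq (GRCm38.p6). Alternatives were the block, quantile normalization, centring, filters on low scores (mean above -50, or above 0 on at least 4 arrays), 1 value per gene, array weights, the methods' t-test, eBayes without trend, an inverse normal scale, and leaving out arrays; for the probe sets that do not have the highest mean of their gene, leaving out arrays was added after seeing the data.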

Additional observations from a re-analysis of the deposited data

How the results depend on the processing

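Over the 23 alternatives, limma and the methods' t-test called 0 of all probe sets and 0 of the member probe sets in each, the fit with the experiment as a replicate block (0 calls) included. The smallest adjusted p over all probe sets was 0.933 with the block, 0.552 in the t-test, 0.0651 without the SSC array of experiment 4, and 1 in the others. At an unadjusted p under 0.05 the block gave 2268 of 45037 probe sets against 1081 without it, and 1 of 19 members in both. Among the 23 alternatives the members at that level numbered 0 in 13, 1 in 9 and 2 in 1, that without the BCSP array of experiment 1, where Notch2 1451889_at was added to Notch3 1421965_s_at. Notch3 1421965_s_at was no longer under it on the inverse normal scale, averaged with the other Notch3 probe set, and in 10 of 12 settings that left out arrays. Of 218 alternative differences (SSC minus BCSP) of the 10 genes at their probe set with the highest mean, 211 kept their direction, 7 turned it, and 0 passed the threshold. Hey1, Jag2, Notch1 and Notch3 turned under none. With a gene's probe sets averaged the difference turned for Jag1 (3.55 points), Notch2 (5.11 points) and Notch4 (-7.09 points), and 1 gene, Hes1, was above 0 on all arrays in place of 2 probe sets. Leaving out arrays moved the difference between 0.352 and 18.5 points for Notch1, -20.3 and -2.14 for Notch2, 14.0 and 20.02 for Notch3, 7.58 and 25.7 for Notch4, -36.9 and -10.6 for Jag2, and -8.79 and -1.83 for Hey1, none of them turned, and between -1.33 and 7.34 points for Dll1, -26.5 and 0.508 for Dll4, -9.1 and 2.03 for Hes1, and -13.9 and 1.54 for Jag1; the causes were not tested. The filters on low scores left 8 and 3 of the 19 probe sets, so most members have no value there. With centring on array medians 3 probe sets were above 0 on all arrays, and leaving out both arrays of an experiment, added for this count after seeing the data, gave 2 or 3. Low scores are a limit: 10 of the 19 probe sets exceeded the silent reference's 95th percentile on no array. Array intensities were not examined, so these scores do not measure signal over background.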
